A study of Mus musculus with 14 samples.

Results

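The miRNA cargo of plasma extracellular vesicles (EVs) was compared between sham mice and mice that received 9 Gy to the whole body. All mouse miRNA probes of a hybridisation panel with a mean of at least 10 counts over the 5 samples at 9 Gy and the 4 sham samples were included, which gave 192 of the 566 mouse miRNA probes and 192 of the 626 probes of every kind. The mice were female C57BL/6J, 6 to 8 weeks old per the study's methods, irradiated from a caesium source, and EVs were pelleted by differential centrifugation from plasma taken 3 days after exposure. Sham mice were uninjured. Another 5 samples from mice given 2 Gy entered the model only to help estimate the spread between samples. The labels do not say whether a sample came from 1 mouse or a pool, so the p-values measure the spread between these samples, which may be technical. The EV pellets hold vesicles of mixed cell origin, and more vesicles of one origin cannot be told apart from more miRNA per vesicle.

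MicroRNAs are short RNAs, of about the length of the sequences printed here, that guide Argonaute proteins to messenger RNAs, mainly through a seed at bases 2 to 8 from the 5′ end. Each precursor hairpin can give a mature miRNA from either arm, named 5p or 3p. In blood, miRNAs travel inside EVs, on proteins and within blood cells. Ionizing radiation activates p53, kills dividing blood and gut precursors and shrinks the pool of circulating leukocytes, so miRNAs of blood cells and of the p53 response were listed together with 2 imprinted miRNA clusters.

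Each miRNA in this assay is joined to a tag by ligation before it is hybridised and counted as single barcodes. The sequences that follow are the mature forms behind the clearest differences, shown so that the shared and distinct seeds can be read, with the seed in capitals. They are RefSeq entries of the GRCm38.p6 build, 5′ to 3′. Panel names often carry no arm, and where the RefSeq table lists both arms for such a name, which arm the probe reads was not known. In the RefSeq table used here, 5 of the probe names past the threshold had an entry of exactly that name, 13 had entries for both arms and 2 for 1 arm, and the other 9 were not matched in that table. The first set comes from the imprinted Dlk1-Dio3 region and adds miR-376b, a near neighbour of miR-376a whose counts did not pass the test.
mmu-miR-376a-3p: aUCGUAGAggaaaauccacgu
mmu-miR-376a-5p: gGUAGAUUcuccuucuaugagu
mmu-miR-376b-3p: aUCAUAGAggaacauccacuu
mmu-miR-136-5p: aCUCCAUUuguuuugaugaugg
mmu-miR-136-3p: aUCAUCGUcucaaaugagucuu
mmu-miR-539-5p: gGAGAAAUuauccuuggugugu
mmu-miR-377-5p: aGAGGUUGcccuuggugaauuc
mmu-miR-377-3p: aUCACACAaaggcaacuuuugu

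The seeds of miR-376a-3p and miR-376b-3p differ, although 18 of the 21 bases are the same. A second set holds families in which members share a seed but did not give the same test result, namely let-7, miR-15/16 and miR-17.
mmu-let-7d-5p: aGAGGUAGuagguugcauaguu
mmu-let-7e-5p: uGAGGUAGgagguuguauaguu
mmu-let-7f-5p: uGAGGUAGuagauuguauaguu
mmu-miR-15a-5p: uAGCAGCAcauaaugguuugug
mmu-miR-16-5p: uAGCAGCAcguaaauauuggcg
mmu-miR-17-5p: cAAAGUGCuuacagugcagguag
mmu-miR-106a-5p: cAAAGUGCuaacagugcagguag
mmu-miR-20a-5p: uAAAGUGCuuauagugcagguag

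The 3 let-7 forms shown are the same at 19 or 20 of 22 bases, and miR-106a-5p matches miR-17-5p at 22 of 23 bases. Probes for such close copies can share target, so their separate values are uncertain. The panel itself reads miR-106a with miR-17, and miR-20a with miR-20b, as 1 value each. A last set gives 3 probes past the threshold whose panel name matched exactly and that are described among the lower counts.
mmu-miR-34b-5p: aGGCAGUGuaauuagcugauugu
mmu-miR-450b-5p: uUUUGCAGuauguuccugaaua
mmu-miR-338-5p: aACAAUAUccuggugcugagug

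The control probes were read before the miRNAs. Ligation positive controls are synthetic RNAs that are counted only after they have been ligated, and the geometric mean of the 3 probes was 2810, 2231, 2409, 2337 and 3463 counts at 9 Gy. In sham it was 634, 208, 401 and 136.3 counts. Every sample at 9 Gy was above every sham sample, with a ratio of 8.98 between the groups' geometric means, or 3.17 on the log2 scale (exact permutation test, two-sided p = 0.00794, the smallest that 5 against 4 samples allow). The single ligation controls had ratios of 6.88, 9.17 and 11.5. The samples therefore differed in ligated control as well as in dose, and the 2 cannot be told apart in these 9 samples.

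Hybridisation positive controls, which need no ligation, averaged 1052 ± 87.0 counts at 9 Gy (SD, n = 5) and 1064 ± 89.6 in sham (SD, n = 4), a ratio of 0.989 (exact permutation test, two-sided p = 0.810). Negative controls have no target, and the geometric mean of the 8 probes was 8.97 ± 1.02 counts at 9 Gy (SD, n = 5) and 8.44 ± 1.35 in sham (SD, n = 4), a ratio of 1.07 (exact permutation test, two-sided p = 0.484). These differences in hybridisation and background were smaller than the spread between samples. One negative control, NEG_C, stood above the others with means of 60.6 counts at 9 Gy and 48.0 in sham. A background limit was set in each sample at the mean plus 2 SD of the other 7 negative controls, and averaged 14.4 counts at 9 Gy and 15.3 in sham. The ligation negative controls averaged 5.73 counts at 9 Gy and 7.0 in sham.

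**Figure D1:**
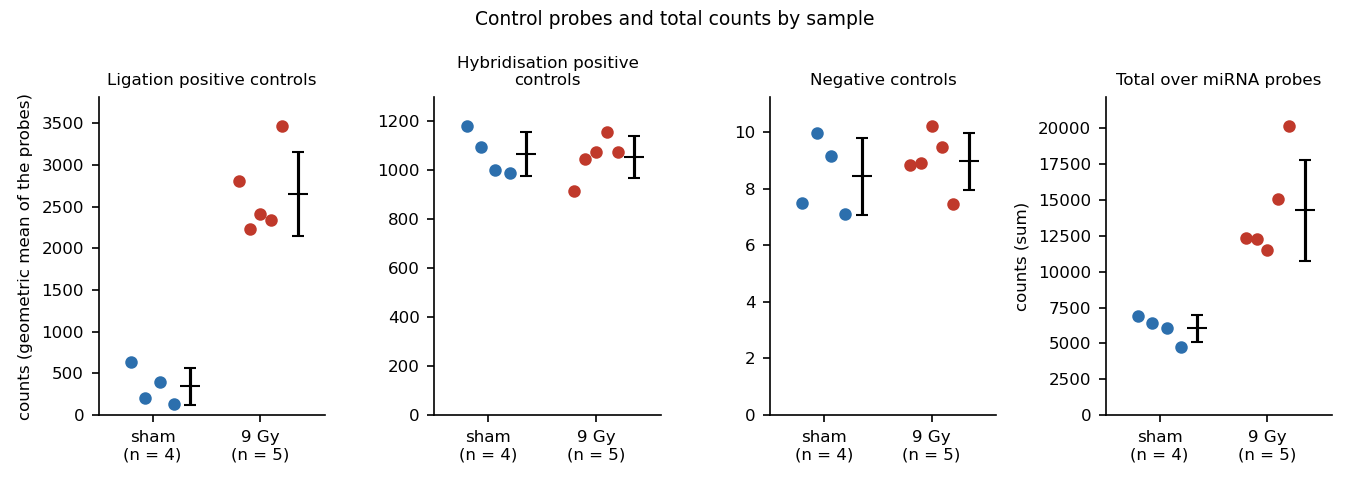
Control probes and total counts in each sample, with sham in blue and 9 Gy in red. The vertical axes give counts from 0, as geometric means of the control probes in the first 3 panels and as a sum in the last, and black bars are the mean and SD over samples. Ligation controls and totals do not overlap between the groups, whereas hybridisation and negative controls do.

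Total counts over all miRNA probes were 12354, 12288, 11518, 15068 and 20150 at 9 Gy and 6926, 6388, 6072 and 4781 in sham, a ratio of means of 2.36 (exact permutation test, two-sided p = 0.00794). Most of that difference lay in a pair of probes. miR-376a held a mean of 43.6% of the miRNA counts at 9 Gy and 0.321% in sham, and miR-136 held 6.36% and 0.265%. Without both, the totals were 6985 ± 894 at 9 Gy (SD, n = 5) and 6006 ± 899 in sham (SD, n = 4), a ratio of 1.16 that did not pass the test (exact permutation test of log2 totals, two-sided p = 0.127). The median mouse probe had 8.0 counts at 9 Gy and 6.75 in sham, which is the level of the negative controls. On average 110 ± 42.5 of the 566 mouse probes exceeded the background limit at 9 Gy (SD, n = 5) and 57 ± 16.7 did so in sham (SD, n = 4).

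After 9 Gy, the 2 imprinted-cluster miRNAs miR-376a and miR-136 had the largest log2 differences among the probes past the threshold, and 24 other mouse probes rose to means between 15.6 and 186 counts. The blood cell miRNA miR-142-5p, the brightest probe in sham, fell, and so did the probe for miR-106a and miR-17. With the quasi-likelihood test of edgeR and TMM scaling over all miRNA probes, 28 of the 192 mouse probes passed an adjusted p of 0.05, with 26 higher and 2 lower at 9 Gy. Of the 26, 16 had a sham mean under 10 counts and were tested only because they were high at 9 Gy. With a mean of at least 10 required in each group, 9 probes were higher and 2 lower of 150 tested. Over all 202 tested probes, 10 of them viral, 30 were called, which is 14.9% of those tested, and 13.4% were higher and 1.49% lower. The counts of the 2 groups did not overlap for 24 of the 28 called mouse probes, against 28, or 13.9%, of all 202 probes tested.

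The direction of most calls depended on what the counts were scaled to. TMM gave 27 probes higher and 3 lower, and scaling to the hybridisation controls gave 34 higher and 0 lower. Total counts gave 15 higher and 154 lower, and the geometric mean of the 100 highest miRNA probes gave 21 and 55. Scaling to the ligation controls left 2 probes higher, miR-376a and miR-136, and put 191 lower. These scalings moved the median log2 difference of all tested probes from 0.01 under TMM to 0.22 with the hybridisation controls, -0.48 with the 100 highest probes, -1.01 with total counts and -2.92 with the ligation controls. Every log2 difference given from here on is 9 Gy minus sham under TMM unless another scale is named, and "rose" or "fell" means relative to that median.

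**Figure D2:**
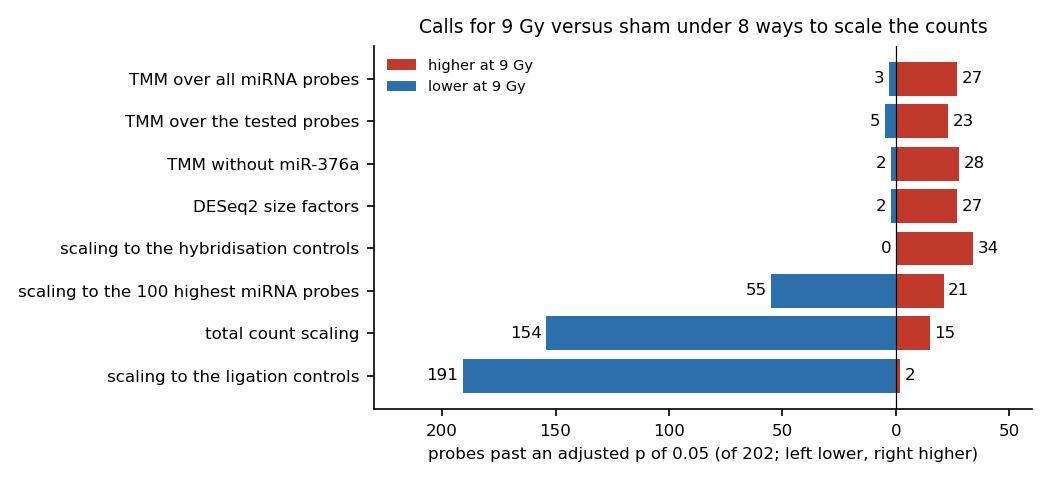
Number of the 202 tested miRNA probes past an adjusted p of 0.05 under 8 ways to scale the counts, with probes higher at 9 Gy drawn to the right in red and lower ones to the left in blue. The calls run from 34 higher and 0 lower with the hybridisation controls to 2 higher and 191 lower with the ligation controls.

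miR-376a is made from a hairpin on chromosome 12 (GRCm38.p6, chr12:109723781-109723848, plus strand), a noncoding miRNA gene of the maternally expressed RNAs between Dlk1 and Dio3. At 9 Gy it had 5547, 4338, 4100, 7320 and 10763 counts. In sham it had 31, 20, 19 and 10 counts, of which 3 were above the background limit of their sample. The lowest sample at 9 Gy stood more than 100 times above the highest sham sample. The log2 difference was 8.13 ± 0.40 (SE; edgeR, adjusted p = 4.46e-09), 8.86 after the median negative control was subtracted, and 5.21 with scaling to the ligation controls. It was thus larger than the 3.17 of the ligation controls themselves.

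miR-136 lies nearer to Dlk1 in the same region (chr12:109595327-109595388, plus strand). It had 829, 916, 857, 798 and 987 counts at 9 Gy, and 20, 19, 16 and 10 counts in sham, where 2 of the 4 samples exceeded the background limit. The 5 samples at 9 Gy were close to each other, with a mean of 877 ± 75.1 counts (SD, n = 5). The log2 difference was 5.57 ± 0.13 (SE; edgeR, adjusted p = 2.26e-55) under TMM and 2.61 with scaling to the ligation controls. miR-376a and miR-136 passed the threshold in all 19 alternative settings and in each of the 9 fits that left out 1 sample.

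miR-539 and miR-377 were the other members of the Dlk1-Dio3 cluster that rose. miR-539 (chr12:109728129-109728202) had 95, 91, 79, 106 and 159 counts at 9 Gy and 8, 14, 13 and 9 in sham. miR-377 (chr12:109740510-109740577) had 69, 66, 52, 75 and 88 counts at 9 Gy and 12, 11, 10 and 8 in sham. For both, all samples at 9 Gy were above all sham samples, and no sham sample exceeded its background limit, so the difference is taken against background and not against a measured sham level. The log2 difference was 3.04 ± 0.24 for miR-539 (SE; edgeR, adjusted p = 1.93e-19) and 2.56 ± 0.25 for miR-377 (SE; edgeR, adjusted p = 1.34e-14), or 4.65 and 4.39 after the median negative control was subtracted, which put at least 1 sham sample of each at the floor of 1. Scaled to the ligation controls, the differences were 0.02 for miR-539 and -0.37 for miR-377.

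The Dlk1-Dio3 list held 64 probes in all. Only 22 of them met the count minimum, and of these 4 rose, 0 fell and 18 did not pass the test, against 13.4% higher among all probes tested, with a median log2 difference of 0.16 against 0.01 for all probes tested. The counts summed over the list ran from 5608 to 12623 at 9 Gy and from 405 to 622 in sham, and miR-376a and miR-136 make up most of the sums at 9 Gy. Direct neighbours of miR-376a differed from it. miR-376b (chr12:109723458-109723539) had 5, 15, 19, 13 and 20 counts at 9 Gy and 11, 11, 13 and 8 in sham, and miR-376c (chr12:109722718-109722803) had 16, 18, 16, 25 and 35 at 9 Gy and 23, 13, 23 and 5 in sham. The groups overlapped for both, with log2 differences of 0.22 and 0.27 and adjusted p of 0.804 and 0.689 (edgeR). The 42 probes under the minimum had means of at most 10.8 counts at 9 Gy and 11 in sham.

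**Figure D3:**
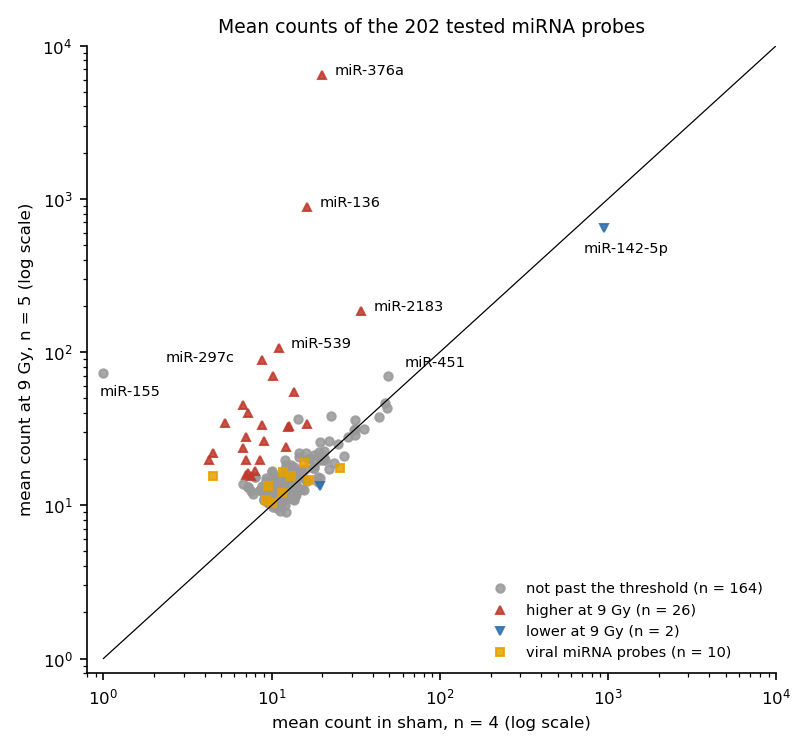
Mean counts as deposited of the 202 tested miRNA probes in sham (horizontal axis, n = 4) and at 9 Gy (vertical axis, n = 5), both on log scales, with the diagonal marking equal means. miR-376a and miR-136 lie far above the diagonal, most called probes sit below 20 counts in sham, and miR-142-5p is the single bright probe of the sham samples.

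The Sfmbt2 locus is the second imprinted region on the list, a large intronic run of near-copies of miR-297, miR-466, miR-467 and miR-669. Of its 33 probes, 17 met the minimum, 3 rose, 0 fell and 14 did not pass, against 13.4% higher among all probes tested, and the median log2 difference was -0.18. Of the 3 that rose, miR-297c and miR-466d-3p met the count minimum only through their counts at 9 Gy. miR-297c had 85, 75, 81, 76 and 124 counts at 9 Gy and 11, 12, 9 and 3 in sham, with a log2 difference of 3.14 ± 0.25 (SE; edgeR, adjusted p = 1.23e-18). miR-466g had 37, 31, 28, 23 and 44 counts at 9 Gy and 15, 12, 16 and 7 in sham (log2 difference 1.19; edgeR, adjusted p = 0.000101). The other was miR-466d-3p, with means of 19.6 counts at 9 Gy and 8.5 in sham. Groups did not overlap for these 3 probes, while the brightest members in sham, miR-467a and miR-467b, had slightly lower counts at 9 Gy, with log2 differences of -0.36 and -0.33 and adjusted p of 0.336 and 0.416 (edgeR). Sequence similarity within this locus makes the assignment of counts to single members uncertain.

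miR-142-5p comes from a hairpin that is transcribed in nearly all blood cells and little elsewhere. In sham it had 1029, 1022, 909 and 844 counts, a mean of 951 that no other mouse probe approached, the next being miR-451 at 49.2. At 9 Gy it had 510, 755, 620, 663 and 684 counts. All 5 were below the lowest sham sample, and it fell by 0.77 ± 0.09 on the log2 scale (SE; edgeR, adjusted p = 2.06e-11). Its share of all miRNA counts was 4.69% at 9 Gy and 15.9% in sham. This share also falls when other probes gain counts, and miR-376a held 43.6% at 9 Gy and 0.321% in sham. The call did not hold with scaling to the hybridisation controls (-0.54; edgeR, adjusted p = 0.0635) or with the ligation control as a covariate (-0.21, adjusted p = 0.844). It was also lost with the median negative control subtracted, where the log2 difference stayed at -0.78 (edgeR, adjusted p = 0.0683). That fit also dropped the trend of variance on mean count that the main fit used. This loss can therefore not be assigned to the background alone. The probe for the other arm, miR-142-3p, was at background in both groups, with means of 7.6 and 7.0 counts.

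The probe for miR-106a and miR-17, 2 members of the growth-promoting miR-17 family, was the other call that fell, by 0.72 on the log2 scale (edgeR, adjusted p = 0.0444). It had 9, 17, 7, 8 and 26 counts at 9 Gy and 13, 27, 19 and 18 in sham, so the groups overlapped, and the call held in 6 of 17 alternative settings. The probe for miR-20a and miR-20b, which shares the AAAGUGC seed, had 34, 44, 36, 37 and 38 counts at 9 Gy and 50, 46, 38 and 40 in sham (log2 difference -0.40; edgeR, adjusted p = 0.220). That probe passed as lower when a mean of at least 30 counts was required, 18 probes were tested and the variance trend was dropped (-0.41; edgeR, adjusted p = 0.0354). Only 1 lower call, miR-142-5p, had groups that did not overlap.

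Blood cell markers other than miR-142-5p were mostly near background. Of 6 lymphocyte probes 3 met the minimum, with 1 lower, and of 5 red cell probes 4 met it, with 1 higher, miR-15a, against 1.49% lower and 13.4% higher among all probes tested. The miR-15a probe met the minimum only through its counts at 9 Gy. miR-155, which rises in activated lymphocytes and macrophages, had 44, 1, 1, 14 and 307 counts at 9 Gy and 1 count in each sham sample. The samples at 9 Gy thus ran from the lowest value of the table to 307 counts, and the difference did not pass (edgeR, adjusted p = 0.0536). The difference passed when replicate 2, 3 or 4 at 9 Gy was left out (edgeR, adjusted p = 0.0208, 0.0219 and 0.0451). Requiring a mean of at least 30 counts, in a fit that also dropped the variance trend, made it pass as well (edgeR, adjusted p = 0.0111). It passed with DESeq2 (adjusted p = 0.000329) and not with limma-voom (adjusted p = 0.876). The fitted log2 difference, which is no bound with every sham sample at 1 count, was 5.73 with all samples and 3.65 without replicate 5 at 9 Gy. miR-150 of resting lymphocytes had means of 11.8 counts at 9 Gy and 11 in sham. miR-223 of myeloid cells had 13.4 and 8.75 counts, and neither passed the test (edgeR, adjusted p = 0.929 and 0.531).

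Red cell miR-451 varied more within groups than between them, with 100, 138, 32, 17 and 63 counts at 9 Gy and 48, 71, 53 and 25 in sham (edgeR, adjusted p = 0.906). Summed over the red cell list, counts ran from 71 to 232 at 9 Gy and from 49 to 108 in sham. The 5 platelet probes, among them miR-126 and miR-21, were all under the minimum, with means of at most 9.4 counts at 9 Gy and 7.25 in sham, and so was miR-122 of hepatocytes at 3.0 counts in both groups. The platelet and liver probes on these lists were therefore near the level of the negative controls. Set against the same 13.4%, 0 of 3 intestinal epithelium probes that met the minimum, of 7 on the list, were called, and 1 of 3 striated muscle probes, also of 7, rose. This was miR-499, with 12, 19, 7, 17 and 24 counts at 9 Gy and 5, 6, 8 and 9 in sham, and it met the count minimum only through its counts at 9 Gy.

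Of the 10 probes of the p53 response, 4 met the minimum, 2 rose and 0 fell, against 13.4% higher among all probes tested. Both that rose, miR-34b-5p and miR-15a, met the count minimum only through their counts at 9 Gy, and the other 6 probes were not tested. miR-34b-5p, a direct p53 target that restrains the cell cycle, had 14, 16, 19, 23 and 27 counts at 9 Gy and 9, 7, 7 and 5 in sham. It rose by 1.29 ± 0.26 on the log2 scale (SE; edgeR, adjusted p = 6.83e-05), and no sham sample was above its background limit. The other arm of its hairpin, miR-34b-3p, had means of 13.2 counts at 9 Gy and 10.2 in sham and did not pass (log2 difference 0.17; edgeR, adjusted p = 0.895). miR-34a, the most studied member, was under the minimum with means of 7.0 counts at 9 Gy and 9.25 in sham, and the miR-34c probe had 1 count in all 14 samples of the series.

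miR-15a and miR-16 share a seed, target the mRNA of the survival factor Bcl2, and stand on both the p53 and the red cell list. Of the entries printed above, miR-15a-5p lies on chromosome 14 and miR-16-5p on chromosome 3. miR-15a had 14, 13, 15, 22 and 20 counts at 9 Gy and 8, 9, 9 and 6 in sham (log2 difference 0.87; edgeR, adjusted p = 0.0192). This call held in 7 of 16 alternative settings and was lost with limma-voom and DESeq2 (adjusted p = 0.0857 and 0.114). miR-16 had 44, 51, 23, 22 and 42 counts at 9 Gy and 19, 14, 15 and 9 in sham, again without overlap. Its log2 difference of 1.17 was larger, but its spread at 9 Gy was wider and it did not pass (edgeR, adjusted p = 0.0624). Without replicate 3 or replicate 4 at 9 Gy, miR-16 passed (adjusted p = 0.0206 and 0.0126).

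The let-7 family, which represses growth genes such as Ras and Lin28, had 7 of 9 probes above the minimum, and 2 rose, against 13.4% higher among all probes tested. let-7d had 20, 12, 19, 24 and 35 counts at 9 Gy and 5, 5, 6 and 2 in sham (log2 difference 2.06; edgeR, adjusted p = 6.32e-08). let-7e had 20, 23, 16, 22 and 37 counts at 9 Gy and 11, 6, 7 and 3 in sham (log2 difference 1.59; edgeR, adjusted p = 1.45e-06). All 7 members share the GAGGUAG seed printed above. let-7f, the brightest of them in sham, had 41, 54, 46, 50 and 42 counts at 9 Gy and 63, 54, 40 and 32 in sham, with a log2 difference of -0.19 (edgeR, adjusted p = 0.705). let-7d and let-7e met the count minimum only through their counts at 9 Gy. The let-7a probe had 1 count in all 14 samples and gave no measure.

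miR-30b rose, 1 of the 3 miR-30 probes tested, against 13.4% higher among all probes tested. It had 63, 55, 48, 50 and 59 counts at 9 Gy and 12, 18, 16 and 8 in sham, a log2 difference of 1.84 ± 0.24 (SE; edgeR, adjusted p = 7.32e-10). miR-30a and miR-30e had means of 11.2 and 13.0 counts at 9 Gy and 10.5 and 11.2 in sham, and neither passed. miR-30c and miR-30d were under the minimum and were not tested.

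Among the remaining calls, miR-2183 had 184, 156, 156, 177 and 259 counts at 9 Gy and 47, 29, 38 and 22 in sham, and was the 1 probe that rose with every sham sample above the background limit (log2 difference 2.27 ± 0.20, SE; edgeR, adjusted p = 2.03e-17). With NEG_C included, the limit averaged 42.1 counts in sham and 52.3 at 9 Gy, and then no sham sample of any of the 26 probes that rose was above it, miR-2183 included. miR-421, for which the DNA damage kinase Atm is a described target, had 34, 46, 45, 33 and 41 counts at 9 Gy and 11, 10, 7 and 1 in sham (log2 difference 2.27; edgeR, adjusted p = 2.92e-11). miR-664 and miR-1839-3p are processed from small nucleolar RNAs. miR-664 had 30, 29, 33, 33 and 48 counts at 9 Gy and 5, 5, 10 and 1 in sham, and miR-1839-3p had 46, 36, 47, 42 and 53 and 3, 9, 6 and 9. Both had a log2 difference of 2.50 with no overlap and with all sham samples at background.

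Lower in count were miR-1191, miR-872, miR-1928, miR-489 and miR-450b-5p, with means from 19.6 to 33.2 at 9 Gy and from 4.25 to 12.8 in sham, and log2 differences from 1.16 to 1.98. None overlapped between the groups. miR-450b-5p, of an X-linked cluster, had 28, 17, 15, 19 and 60 counts at 9 Gy and 5, 7, 10 and 6 in sham, so 1 sample set much of its mean (log2 difference 1.75 ± 0.40, SE; edgeR, adjusted p = 0.00141). The smallest differences that passed, from 0.77 to 0.96, belonged to miR-338-5p, miR-568, miR-15a, miR-499, miR-367, miR-378 and no other probe that rose. miR-338-5p, of a host gene active in neurons, had means of 16.2 counts at 9 Gy and 7.25 in sham. Of these weakest calls, miR-338-5p, miR-15a, miR-499 and miR-378 had means from 15.6 to 16.8 counts at 9 Gy, close to the background limit. miR-568 and miR-367 had means of 34.0 and 24.0 and were above the limit in all 5 samples at 9 Gy. In sham, miR-568 was above it in 3 of 4 samples and miR-367 in 0.

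**Figure D4:**
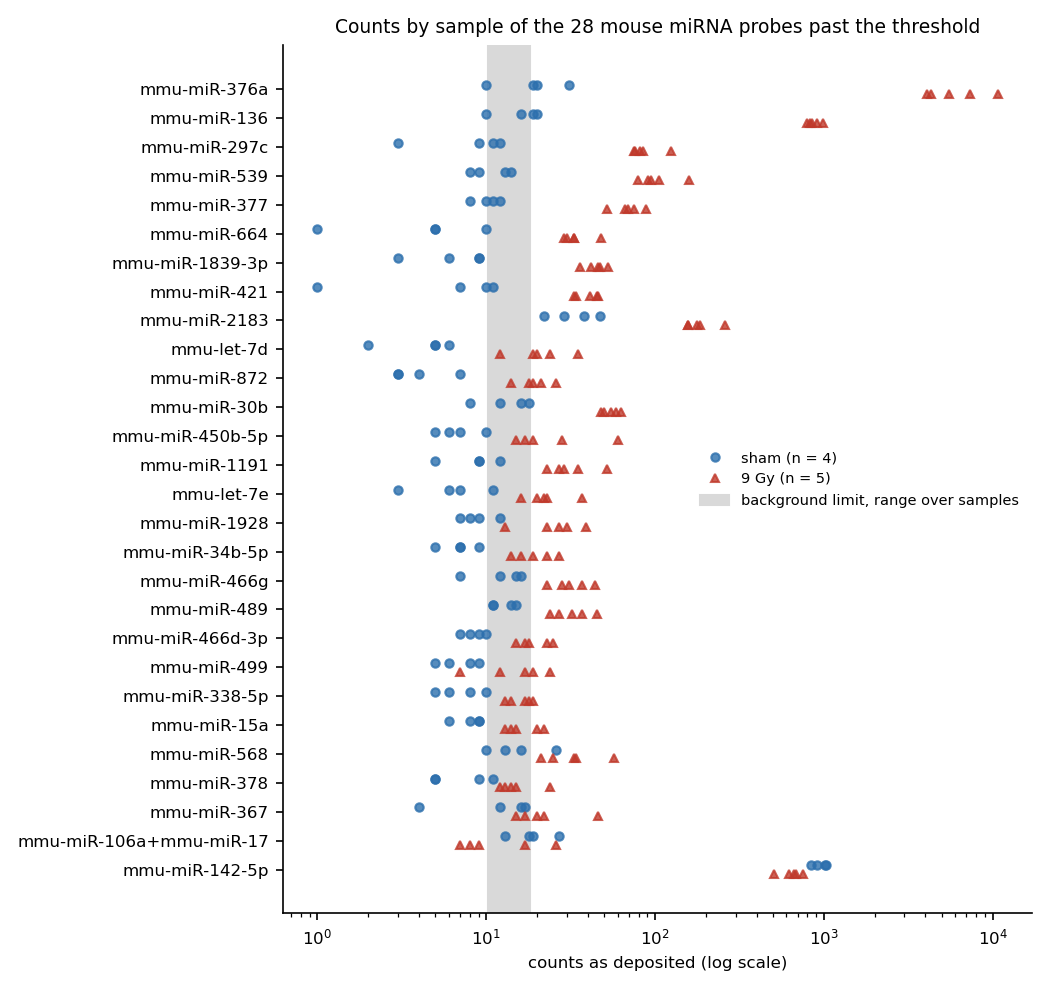
Counts as deposited, on a log scale, of the 28 mouse miRNA probes past the threshold, ordered by log2 difference, with each sham sample as a blue circle and each 9 Gy sample as a red triangle. The grey band is the range over the 9 samples of the background limit (mean plus 2 SD of the negative controls without NEG_C). Most sham circles lie in or left of the band, and miR-142-5p at the bottom is the single bright probe that was lower at 9 Gy.

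Leaving out 1 sample ended a call for 7 of the 28 probes. miR-338-5p no longer passed without sham replicate 1 (edgeR, adjusted p = 0.0982). miR-568 did not pass without 9 Gy replicate 5 or sham replicate 3 (0.0646 and 0.0881), and miR-15a without 9 Gy replicate 4 or sham replicate 1 (0.0737 and 0.0958). These 3 depended on the fewest samples. miR-499 was lost without 9 Gy replicate 5, sham replicate 1 or sham replicate 2, with adjusted p from 0.0695 to 0.121, and miR-367 without 9 Gy replicate 5, sham replicate 2 or sham replicate 4, with adjusted p from 0.114 to 0.323. miR-378 was lost without 9 Gy replicate 2 or 4 or sham replicate 1, 3 or 4, with adjusted p from 0.0524 to 0.201. The fall of the miR-106a and miR-17 probe was lost without 9 Gy replicate 1, 3 or 4 or sham replicate 2, 3 or 4, with adjusted p from 0.0848 to 0.254. Over the other alternative settings the call held in 11 of 16 for miR-338-5p, 12 of 17 for miR-568, 7 of 16 for miR-499, 5 of 17 for miR-367 and 8 of 16 for miR-378.

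Across the 26 probes that rose, 10 had a log2 difference of at least 2, 9 from 1 to under 2 and 7 under 1. In 20 of them no sham sample was above its background limit, and in 21 every sample at 9 Gy was, against 26 and 6 with NEG_C included in the limit. The log2 ratio of 3.17 of the ligation controls was exceeded by 2 of the 26, miR-376a and miR-136. After the median negative control was subtracted from probes and controls alike the ratio was 3.28, which 12 of the 26 exceeded, and sham counts at the floor of 1 enter many of those values. Replicate 5 at 9 Gy, which had the highest ligation controls and the highest total, held the highest count in 21 of the 26 probes. Sham replicate 4, with the lowest ligation controls and the lowest total, held the lowest sham count in 17, with ties given to the first replicate. Both tallies use counts before scaling, and the same tally over all tested probes was not made. Under TMM, replicate 5 had the largest scaling factor at 9 Gy (1.305) and sham replicate 4 the smallest in sham (0.753). The tallies can therefore not be read as particular to the called probes. The part of ligation in the differences of the 26 probes was not tested. With the log2 ligation control as a covariate, 3 of the 30 calls remained, miR-376a, miR-136 and miR-539. Of the 25 mouse calls lost, 21 kept their sign and 11 of these kept at least 0.5 of their log2 difference, as miR-15a did (0.91; edgeR, adjusted p = 0.844). This covariate does not overlap between the 9 Gy and sham samples, so a lost call does not show that a difference was absent.

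Of the 10 probes brightest in sham, 2 passed the test, miR-142-5p and miR-2183. With a mean of at least 30 counts required and the variance trend dropped, miR-467a also passed as lower (log2 difference -0.36; edgeR, adjusted p = 0.0397). So did the probe for miR-20a and miR-20b. miR-205, an epithelial miRNA, had 40, 35, 35, 54 and 52 counts at 9 Gy and 75, 50, 34 and 35 in sham. miR-203 of skin had 30, 31, 27, 35 and 35 counts at 9 Gy and 51, 39, 15 and 21 in sham, and miR-135a had 33, 35, 27, 46 and 38 and 34, 31, 30 and 30. Groups overlapped for all 3, and adjusted p were 0.361, 0.818 and 0.985 (edgeR). Of the 192 probes, 143 had a mean of at least 10 counts in both groups, 45 at 9 Gy alone and 4 in sham alone. Just inside the minimum were miR-682, miR-298 and miR-1961 with a mean of 10 counts, and just outside were miR-503, miR-448 and miR-761 with 9.78.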

How the data were processed

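RNA of EVs from 14 samples, of which 9 are compared here, was counted on the mouse miRNA panel of the NanoString nCounter. The authors used nSolver 4.0 for their own normalization, but the deposited values are raw counts per probe: whole numbers, with control probes still present, none under 1, and 362 of 8764 equal to 1. Whether 1 stands for 0 is not given in the sources used here. Samples were grouped by their titles. Total miRNA counts per sample ran from 4781 to 20150, so most probes are limited by counting error near background. Over the miRNA probes 4 of the 6 sham pairs agreed within sampling noise (chi-square test, unadjusted threshold 0.05). Every pair at 9 Gy differed over the miRNA probes, with chi-square per degree of freedom from 1.46 to 6.37. All pairs of both groups differed over all probes with the ligation controls included, so each was kept as a sample.

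TMM factors were computed over the 599 miRNA probes, a minimum mean of 10 over the 9 samples was then applied, and the 202 probes kept were tested with edgeR 4.0.16 (quasi-likelihood, robust, 14 samples in 1 fit, no block) in R 4.3.3, with Benjamini-Hochberg adjustment and a threshold of 0.05. The steps were tested on simulated data. Control probes were compared with an exact permutation test over the 126 ways to divide the samples. Alternatives changed the filter, scaling, background, samples, covariate, block or test (limma 3.58.1, DESeq2 1.42.0), and leaving out sham replicates 2 and 4 together was chosen after seeing the data. In the edgeR fits with a mean of at least 30 counts or with background subtracted, the trend of variance on mean count was also dropped. Replicate numbers did not pair the samples. miRNAs were named if past the threshold, of miR-376, miR-136 or miR-142, among the 10 brightest in sham, or as examples of a list. Members and lists were chosen with earlier results of these data known. Sequences and positions come from RefSeq GRCm38.p6. Figures were drawn with matplotlib 3.10.9.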

Additional observations from a re-analysis of the deposited data

Results flagged for a closer look

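In 7 of the 91 groups of 4 or 5 samples examined, 1 sample stood apart from the rest by Dixon's test, which chance gives in about 1 group in 20. All 7 were the highest sample at 9 Gy. The gap to the next sample, as a share of the group's range, was 0.796 for miR-297c, 0.728 for miR-2183, 0.789 for miR-664, 0.711 for miR-450b-5p, 0.774 for miR-367 and 0.859 for miR-155, each in replicate 5, which also had the highest ligation controls and total count. It was 0.75 for miR-378 in replicate 2.

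A signal also appeared among the probes for viral miRNAs, which are no mouse genes. The probe mcmv-miR-M23-2 had 18, 8, 14, 15 and 23 counts at 9 Gy and 5, 3, 5 and 5 in sham, a log2 difference of 1.572 (edgeR, adjusted p = 0.000433). The probe mghv-miR-M1-4 had 15, 21, 12, 19 and 20 counts at 9 Gy and 23, 33, 25 and 21 in sham (log2 difference -0.75; edgeR, adjusted p = 0.0230). The first lies near the negative controls, while the second was above the background limit in 4 of 4 sham samples and 4 of 5 at 9 Gy. Among all tested, 2 of the 10 viral probes were called against 28 of the 192 mouse probes.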

How the results depend on the processing

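The 30 calls became 26 to 33 when each sample was left out in turn, 22 without sham replicates 2 and 4, 25 with limma-voom and 26 with DESeq2. They became 12 with a mean of at least 30 counts and no variance trend (18 tested), and 11 with a mean of at least 10 in each group (9 higher, 2 lower, 150 tested). There were 10 after the mean plus 2 SD of all negative controls was subtracted, also without the variance trend. In that fit 18 were tested, since the other probes were at the floor in all 9 samples and gave no value. The calls became 3 with the ligation covariate, 76 with the 100 highest probes, 169 with total counts, 193 with the ligation controls and 47 at an unadjusted p. With the replicate number as a block there were 28 calls (25 higher, 3 lower), and same-numbered samples did not deviate together (correlations from -0.04 to 0.03). The ligation control ratio ran from 6.97 to 11.6, the hybridisation control ratio from 0.966 to 1.02, the negative control ratio from 1.01 to 1.13 and the total count ratio from 2.12 to 2.48 when each sample was left out. The total count ratio was 1.16 without miR-376a and miR-136 and 4.52 with the median negative control subtracted from each probe. Among named probes past the threshold in at least 1 of the 2 fits, the log2 difference changed sign with total count scaling for miR-466d-3p (-0.024), miR-338-5p (-0.067), miR-568 (-0.17), miR-15a (-0.16), miR-499 (-0.076), miR-367 (-0.28), miR-378 (-0.16), miR-376c (-0.77) and miR-376b (-0.81). It changed sign with the ligation controls for miR-2183 (-0.69), miR-377 (-0.37), miR-421 (-0.52), miR-664 (-0.29), miR-30b (-1.15), miR-1839-3p (-0.57), let-7d (-0.76), miR-1191 (-1.20), miR-872 (-0.86), let-7e (-1.20), miR-34b-5p (-1.56), miR-466g (-1.72), miR-1928 (-1.63), miR-489 (-1.85), miR-450b-5p (-1.25), miR-466d-3p (-1.92), miR-338-5p (-1.93), miR-568 (-2.10), miR-15a (-2.03), miR-499 (-2.01), miR-367 (-2.09), miR-378 (-2.02), miR-376c (-2.54), miR-376b (-2.69), miR-451 (-2.72), miR-16 (-1.74) and miR-223 (-2.43), and with the ligation covariate for miR-450b-5p (-0.38), miR-568 (-0.058), miR-367 (-1.25) and the miR-106a and miR-17 probe (0.19). Among named probes past it in neither fit, miR-451 (-0.62) and miR-223 (-0.60) turned with total counts, and miR-376c (-1.22), the miR-20a and miR-20b probe (0.15), miR-135a (0.53), miR-155 (-12.7), miR-150 (0.54) and miR-223 (-0.23) with the covariate. Total count and ligation scaling shift all probes together; the cause of the changes with the covariate was not tested. Counts near the negative controls limit most probes.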
